A study of Homo sapiens and Mus musculus with 33 samples.

Results

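The cells described are all 1511 barcodes of the library labelled K562 that was made from cells fed 4-thiouridine (4sU, a uridine analogue that marks new RNA) and treated with iodoacetamide (IAA, which alkylates the 4sU). This library was chosen for description with earlier results of these data known. Its barcodes were taken by that label alone, with no use of measured values to pick among them. They make up 1511 of the 30019 barcodes in the 16 single-cell libraries of the series. They were set beside all 1842 barcodes of the library of unstimulated, DMSO-treated Jurkat clone E6-1 labelled replicate 1 and all 3046 barcodes of an eHAP library. All 3 libraries were 4sU labelled and made by NOTE-seq, the series' assay of new RNA in single cells, which fixes cells with formaldehyde before the 4sU is converted. A further 49 barcodes labelled K562, fed 4sU but given no IAA, served as a cross-check, as did an unnumbered unstimulated Jurkat library with 4sU, a standard 10x eHAP library without 4sU and an eHAP library with 4sU and IAA fixed in methanol. K562, Jurkat and eHAP are established human cell lines, each grown as a line in culture, so a library stands for 1 culture and not for cells of a tissue. Because 1 library per line was compared, no test was run, and each interval below covers counting error only.

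K562 was derived from a chronic myeloid leukaemia in blast crisis and is used as a model of early red cells. It is known for embryonic and fetal globin genes, for the erythroid factor GATA1, for little MHC class I on its surface, and for a deletion that removes CDKN2A and its neighbour MTAP. Jurkat is a T cell leukaemia line, and eHAP is a haploid line descended from a chronic myeloid leukaemia. Cells of the monocyte and granulocyte branch make lysozyme, NADPH oxidase subunits and the proteases and ribonucleases of primary granules, under factors such as PU.1 (gene SPI1) and the C/EBP family. B cells are set up by EBF1 and PAX5 and carry CD79A, CD79B and immunoglobulin chains.

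On globins, GATA1, CDKN2A and MTAP these data differed from what K562 is known for. For MHC class I they hold RNA and not surface protein, so they do not bear directly on that point. No K562 library from another series was compared. Of 10 globin genes 8 had no UMI (unique molecular identifier, 1 counted RNA molecule) among 11240210, GATA1 had 1 UMI, and MTAP, CDKN2A and the class I genes stood among the well-detected genes. The cells instead carried monocyte and primary granule genes, together with the B cell factors EBF1 and PAX5 in many of the same barcodes. The library is therefore called by its label throughout and given no other cell type or line name. The K562-labelled barcodes held a median of 7126 UMIs (617 to 24746), against 17481 in Jurkat and 9322.5 in eHAP, and a median mitochondrial share of 0.917%. Levels are a gene's UMIs per 1000000 UMIs of the library (CPM), so that 3 UMIs come to 0.267 CPM in the K562-labelled library, 0.0800 in Jurkat and 0.0884 in eHAP. The K562-labelled library shared 0 barcodes with Jurkat, 0 with the 49-barcode library and 1 with eHAP. The markers of the comparison lines were as labelled: 22 of 28 T cell genes reached 10 CPM in Jurkat, and 4 of 23 genes common to leukocytes did so in eHAP.

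The 3 genes named as markers when the K562-labelled cells were chosen differed in how far they set those cells apart. LYZ (lysozyme, which breaks bacterial walls; chr12:69348381-69354234, GRCh38.p14) stood at 134 CPM (95% Poisson interval 127 to 140) and at 97.2 CPM in the 49 barcodes without IAA. LYZ was at 0.107 and 0.138 CPM in the Jurkat libraries (4 and 1 UMIs) and at 0.0589, 0.0179 and 0 CPM in the NOTE-seq, 10x and methanol eHAP libraries. Both K562-labelled libraries were thus far above all 5 others for LYZ, with no overlap. AIF1 (a calcium-binding protein of monocytes and macrophages; chr6:31615234-31617015) stood at 265 CPM (255 to 274), and at 194 CPM without IAA. AIF1 was also well detected in both Jurkat libraries, at 119 and 88.9 CPM, and was at 0.0295, 0 and 0.0124 CPM in the eHAP libraries. The ratio of AIF1 to Jurkat replicate 1 was therefore 2.22 (2.12 to 2.32) and that to the unnumbered Jurkat library 2.98 (2.73 to 3.25), so AIF1 was not 4-fold apart from Jurkat. EBF1 (chr5:158695920-159099916) stood at 46.5 CPM (42.6 to 50.7), at 38.4 CPM without IAA, at 24.9 and 6.64 CPM in Jurkat and at 1.80, 0.518 and 0.0865 CPM in eHAP. The K562-labelled library was highest for EBF1, but the ratio was 1.87 (1.68 to 2.08) to Jurkat replicate 1 and 7.0 (5.21 to 9.62) to the unnumbered library, a gap between Jurkat libraries wider than that between the K562-labelled library and replicate 1. Of the 3 markers only LYZ was at least 4-fold higher than in both lines, as were 6.35% of the 16483 genes with enough UMIs to be compared.

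**Figure D1:**
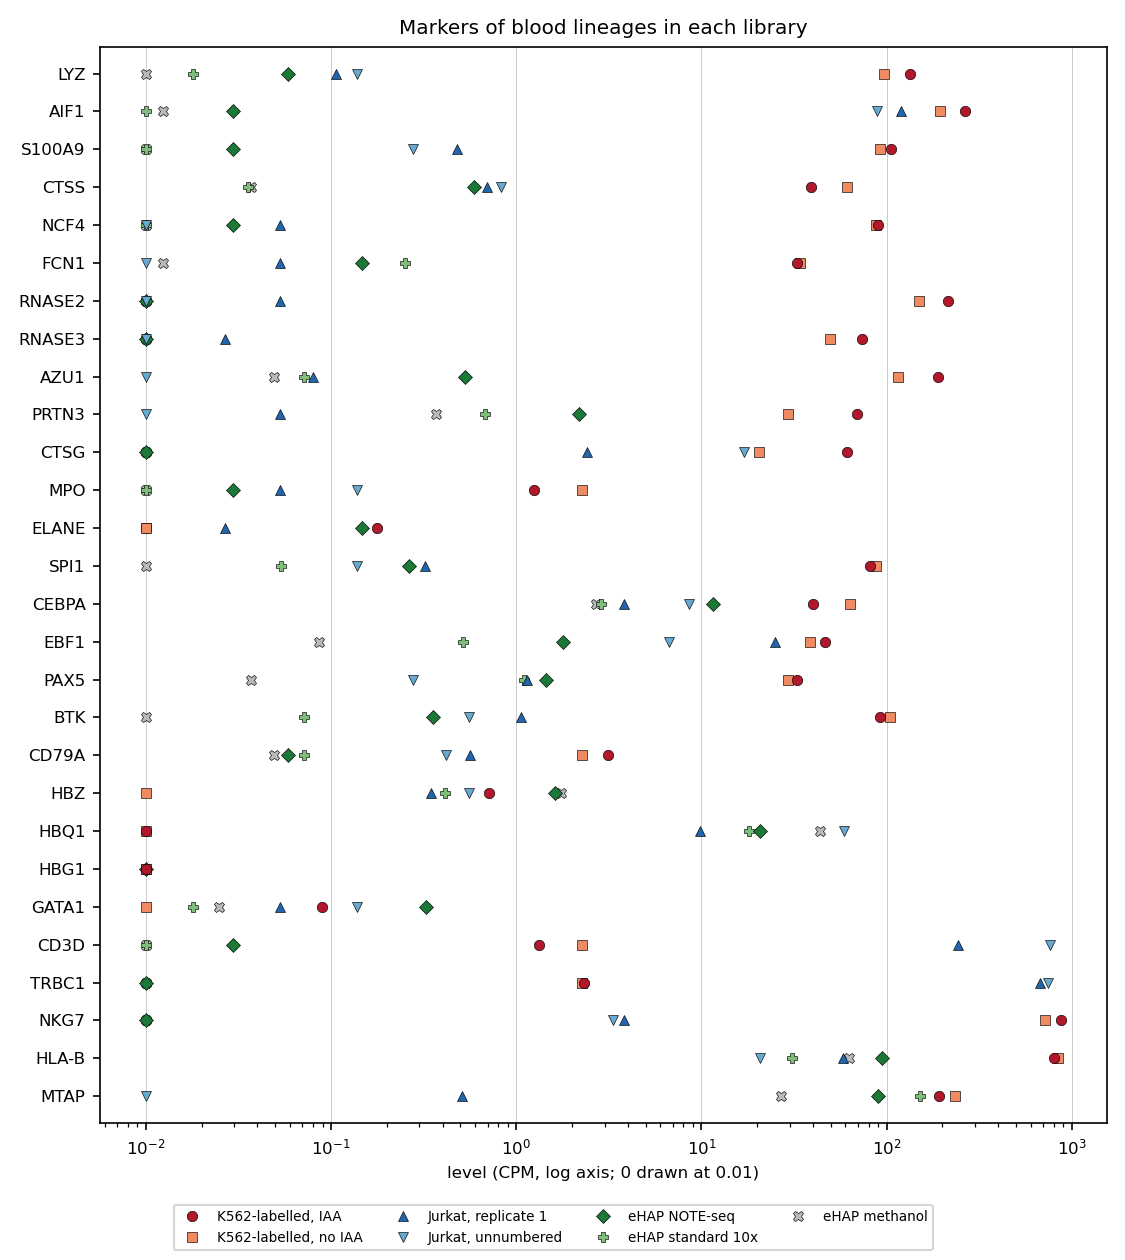
Level of 28 lineage genes in 7 libraries, in CPM on a log axis, with 1 symbol per library and levels of 0 drawn at 0.01. LYZ, the ribonuclease genes and SPI1 separate both K562-labelled libraries from the others, while AIF1 at 265 CPM lies near the Jurkat libraries and HBG1 is at 0 in all 7.

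Globin genes, the best known mark of K562, were nearly absent. Among the embryonic and fetal globins, HBE1, HBG1, HBG2 and HBQ1 had 0 UMIs in the K562-labelled library, HBZ had 8 and HBM had 5. HBZ was thus at 0.712 CPM, against 0.347 CPM in Jurkat replicate 1 and 1.62 CPM in NOTE-seq eHAP. HBM was at 0.445 CPM, against 0.0800 and 0.147 CPM, so neither level was below that of Jurkat replicate 1. The adult globins HBA1, HBA2, HBB and HBD all had 0 UMIs, and a count of 0 allows up to 0.267 CPM at 3 UMIs. The 49-barcode library without IAA had 0 UMIs of all 10 globins. HBG1 and HBG2, like HBA1 and HBA2, are near-identical copies whose reads the counting may split or drop, so their zeros are less certain than that of HBE1. HBQ1 (theta globin) was found outside the K562-labelled library, at 9.87 and 58.7 CPM in the Jurkat libraries and at 20.6, 18.1 and 43.9 CPM in the eHAP libraries. Its level was thus at least 37.0-fold higher in Jurkat replicate 1 and at least 77.2-fold higher in NOTE-seq eHAP. At least 1 globin UMI was found in 13 of 1511 K562-labelled barcodes (0.860%, exact binomial interval 0.459 to 1.47%), in 350 of 1842 Jurkat and in 751 of 3046 eHAP barcodes. After each barcode was thinned to 3000 UMIs, which left out 48 K562-labelled and 61 Jurkat barcodes, these shares were 0.342%, 3.2% and 8.31%. In the lines most globin UMIs came from HBQ1 (370 in Jurkat replicate 1 and 700 in NOTE-seq eHAP), so the shares do not hold for each globin alone.

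The other red cell genes separated into broadly expressed and restricted ones. Of 25 erythroid regulators and surface genes, 6 reached 10 CPM in the K562-labelled library, 5 in Jurkat and 5 in eHAP. Their summed level was 668 CPM (653 to 683), above 376 CPM in Jurkat and 421 CPM in eHAP. The 6 were GYPC at 226 CPM (glycophorin C), SLC25A37 at 174 CPM (the mitochondrial iron importer), TFRC at 131 CPM (the transferrin receptor), LMO2 at 52.2 CPM, BLVRB at 32.1 CPM and ERMAP at 14.0 CPM, and 5 of them were at 10 CPM or more in at least 1 comparison library too. The exception was LMO2, a bridging protein of blood transcription complexes, at 0.0800 CPM in Jurkat and 0.648 CPM in eHAP. Below 10 CPM but still at least 4-fold above both lines were the transcription factor gene NFE2, at 9.96 CPM against 0.0533 and 0.0295 CPM, and SLC4A1, the red cell anion exchanger, at 7.03 CPM against 0.773 and 0.442 CPM. GATA1 and ALAS2 (the first enzyme of red cell haem synthesis) were at 0.0890 CPM each, KLF1 at 0.801 CPM and AHSP, the alpha globin chaperone, at 0. TAL1, the partner of GATA1 and LMO2, had 2 UMIs in the K562-labelled library against 57.7 CPM in Jurkat. The platelet-lineage genes PF4, PPBP, GP9, GP1BA and TUBB1 were at 0, and of 15 megakaryocyte genes only MEIS1 (239 CPM) and F2RL3 (21 CPM, a thrombin receptor) passed 10 CPM. With MEIS1 the megakaryocyte sum was 269 CPM, above 49.8 CPM in Jurkat and 44.2 CPM in eHAP.

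Monocyte and macrophage genes were widely represented in the K562-labelled library. Of 41 such genes 20 reached 10 CPM in the K562-labelled library and the same number in the library without IAA, against 3 in Jurkat and 3 in eHAP. Their summed level was 1929 CPM (1904 to 1955) in the K562-labelled library, 1743 CPM without IAA, 333 CPM in Jurkat and 307 CPM in eHAP, where most of it came from CYBA, GRN and, in Jurkat, AIF1. LST1, a leukocyte membrane adaptor, stood at 263 CPM against 4.61 CPM in Jurkat and 0.353 CPM in eHAP. CTSH, a lysosomal protease, stood at 154 CPM against 6.24 and 3.36 CPM. S100A9, a subunit of calprotectin that binds calcium and zinc in neutrophils and monocytes, stood at 106 CPM against 0.480 and 0.0295 CPM, and its partner S100A8 at 13.5 CPM with 0 UMIs in both lines. The cytosolic NADPH oxidase subunits NCF4 (89.6 CPM) and NCF1 (54.0 CPM) were present, while CYBB, the membrane subunit that carries the electrons, was at 1.25 CPM. NCF1 has near-identical pseudogene copies, so its count is uncertain. Among other monocyte genes CTSS stood at 39.1 CPM, FCN1 at 32.8 CPM, FCER1G at 27.1 CPM and CD68 at 15.2 CPM, each at least 4-fold above both lines. Several surface and signalling genes of mature monocytes were at or near 0: CD14, FCGR3A and CD163 were at 0, TYROBP at 0.623 CPM, CSF1R at 1.78 CPM and S100A12 at 0.801 CPM.

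Primary granule genes were also present, and they were uneven among themselves. Of 20 granulocyte genes 8 reached 10 CPM in the K562-labelled library, 8 without IAA, and 0 in Jurkat replicate 1 and in eHAP. In the unnumbered Jurkat library 3 did so. SRGN, the proteoglycan that packs granule proteins, stood at 640 CPM against 7.63 and 0.177 CPM. RNASE2 (chr14:20955487-20956436) and RNASE3 (chr14:20891385-20892348), neighbouring ribonuclease genes known from eosinophil granules, stood at 214 CPM (205 to 222) and 74.0 CPM (69.1 to 79.2). In the library without IAA they were at 149 and 49.7 CPM, in Jurkat replicate 1 at 0.0533 and 0.0267 CPM, and in NOTE-seq eHAP both were at 0, so that RNASE2 was at least 2417-fold higher than in eHAP. Neighbours on chromosome 19 behaved unlike each other. AZU1 (azurocidin; chr19:827837-832018) stood at 188 CPM (180 to 197) and PRTN3 (proteinase 3; chr19:840999-848175) at 69.3 CPM (64.5 to 74.3). ELANE (neutrophil elastase; chr19:852303-856243), which lies beside PRTN3, had 2 UMIs. MPO (myeloperoxidase) was likewise near 0 with 14 UMIs, or 1.25 CPM, while CTSG (cathepsin G) stood at 60.9 CPM. Eosinophil genes other than the ribonucleases were low, with CLC at 0, EPX at 0.712 CPM and PRG2 at 9.96 CPM, and the secondary granule genes LTF and LCN2 were at 0.445 CPM and 0. CTSG was also at 17.0 CPM in the unnumbered Jurkat library, 3.58-fold (2.95 to 4.37) under the K562-labelled one. CTSG also differed between the K562-labelled libraries, standing at 20.3 CPM without IAA, 3.00-fold (1.57 to 6.58) lower.

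The 250 bases before the start of the 5 granule protein genes above 50 CPM held in a RefSeq table (GRCh38.p14) are shown because these genes stood high together while none passed 3 CPM in Jurkat replicate 1 or NOTE-seq eHAP. Each runs 5′ to 3′ on the gene's strand, and capitals mark matches, on either strand, to GAGGAAG (a PU.1 core) or TTGCNNAA (a C/EBP core).
RNASE2: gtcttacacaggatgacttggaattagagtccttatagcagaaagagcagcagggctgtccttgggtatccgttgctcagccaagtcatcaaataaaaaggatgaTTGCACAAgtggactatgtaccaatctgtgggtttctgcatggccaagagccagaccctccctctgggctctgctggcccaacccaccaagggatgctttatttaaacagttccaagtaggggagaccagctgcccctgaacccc
RNASE3: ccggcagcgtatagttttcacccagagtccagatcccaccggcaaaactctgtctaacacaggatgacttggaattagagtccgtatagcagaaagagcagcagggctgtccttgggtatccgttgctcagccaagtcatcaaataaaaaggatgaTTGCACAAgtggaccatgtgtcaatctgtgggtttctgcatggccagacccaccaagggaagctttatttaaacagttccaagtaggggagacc
AZU1: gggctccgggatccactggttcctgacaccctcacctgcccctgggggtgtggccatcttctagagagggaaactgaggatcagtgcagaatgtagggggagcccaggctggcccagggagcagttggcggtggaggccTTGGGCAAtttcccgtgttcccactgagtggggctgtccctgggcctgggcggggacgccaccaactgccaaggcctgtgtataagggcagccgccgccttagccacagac
PRTN3: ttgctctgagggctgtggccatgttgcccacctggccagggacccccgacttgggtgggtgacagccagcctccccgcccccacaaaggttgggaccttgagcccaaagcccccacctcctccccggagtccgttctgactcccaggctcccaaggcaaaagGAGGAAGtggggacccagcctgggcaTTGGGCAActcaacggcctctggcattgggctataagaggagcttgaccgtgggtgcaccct
CTSG: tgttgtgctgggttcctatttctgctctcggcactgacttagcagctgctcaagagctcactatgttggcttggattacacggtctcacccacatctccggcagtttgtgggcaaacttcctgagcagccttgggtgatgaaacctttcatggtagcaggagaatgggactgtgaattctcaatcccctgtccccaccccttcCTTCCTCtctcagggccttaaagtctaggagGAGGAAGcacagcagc
They lie at chr14:20955237-20955486 (plus strand), chr14:20891135-20891384 (plus), chr19:827587-827836 (plus), chr19:840749-840998 (plus) and chr14:24576251-24576500 (minus). RNASE2 and RNASE3 were identical in 166 of 203 alignment columns (81.8%), a total that includes columns with a gap. Both held TTGCACAA, at bases 106 to 113 of the RNASE2 window and 157 to 164 of the RNASE3 window, counted from the 5′ end. AZU1 held a C/EBP match on the minus strand, PRTN3 held 1 PU.1 and 1 C/EBP match, and CTSG held 2 PU.1 matches on opposite strands. Of 35116 promoter windows of this length 11.3% held GAGGAAG and 9.05% held TTGCNNAA, so such matches are common, and a match of letters is not evidence of binding. Of the genes for such factors, SPI1 stood at 81.3 CPM against 0.320 and 0.265 CPM, and CEBPA at 40.3 CPM against 3.84 CPM in Jurkat and 11.6 CPM in eHAP. CEBPE stood at 11.5 CPM against 3.17 CPM in Jurkat replicate 1 and 0 UMIs in eHAP. It was higher, at 17.7 CPM, in the unnumbered Jurkat library, and at 2.26 CPM (1 UMI) in the K562-labelled library without IAA. CEBPB, at 8.10 CPM against 8.93 and 15.2 CPM, and CEBPD, at 0 against 0.907 and 6.16 CPM, were not above the lines. GFI1, a repressor active in granulocyte precursors, stood at 90.7 CPM against 9.17 and 1.5 CPM. ZEB2, which acts in monocyte and dendritic cell formation, stood at 537 CPM against 5.25 and 21.4 CPM.

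**Figure D2:**
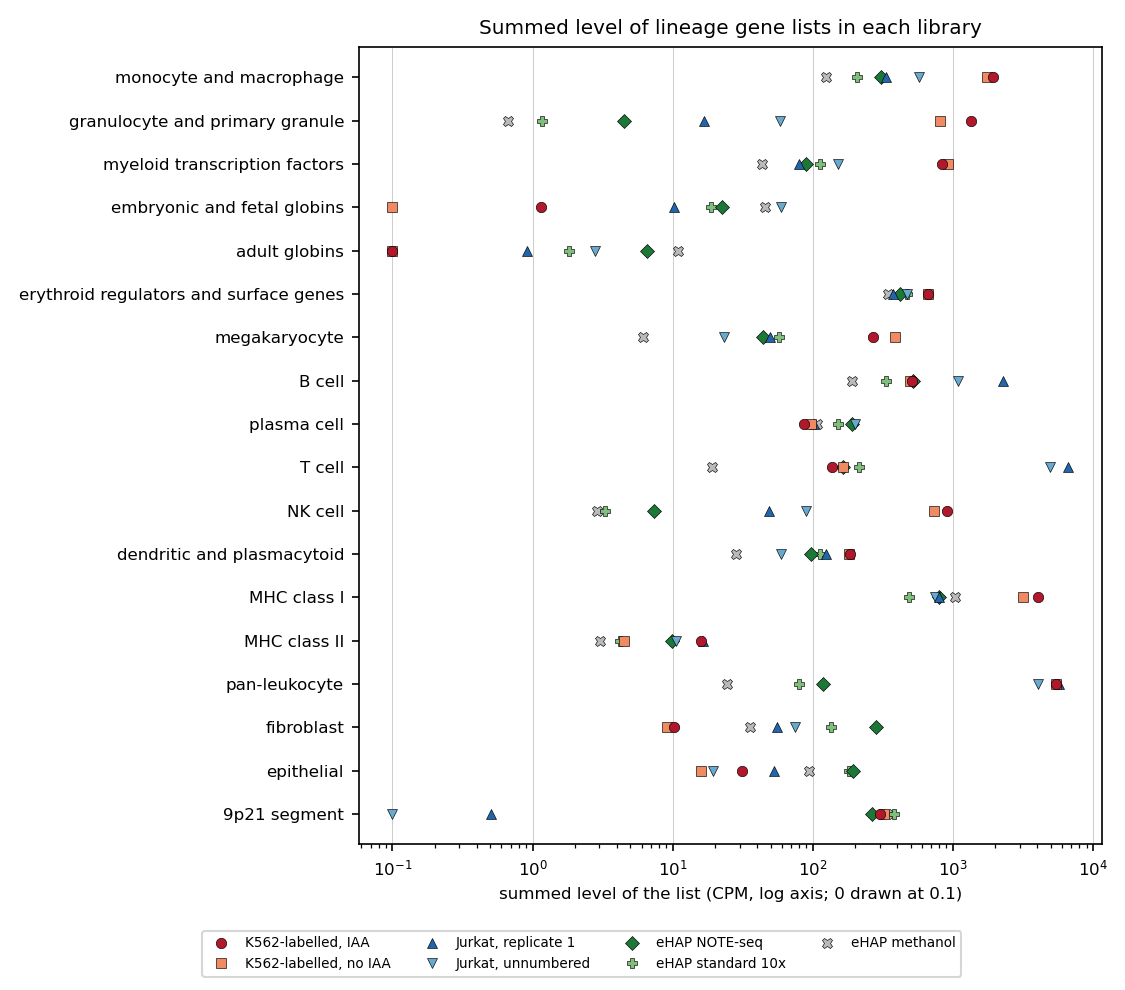
Summed level of 18 gene lists in 7 libraries, in CPM on a log axis, with 1 symbol per library and a sum of 0 drawn at 0.1. The K562-labelled libraries lead for the monocyte, granulocyte, myeloid factor, NK cell, MHC class I, erythroid (668 and 660 CPM) and megakaryocyte (269 and 389 CPM) lists and lie lowest for both globin lists, and their T cell sum of 137 CPM is close to that of eHAP.

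B cell genes were present only in part. Of 38 such genes 7 reached 10 CPM in the K562-labelled library, against 10 in Jurkat replicate 1, 7 in the unnumbered Jurkat library and 4 in eHAP. PAX5 stood at 32.8 CPM (29.6 to 36.4) and at 29.4 CPM without IAA, against 1.15 CPM in Jurkat and 1.44 CPM in eHAP, ratios of 28.6 (20.8 to 40.2) and 22.8 (16.9 to 31.3). BTK, a kinase of B and myeloid cells, stood at 91.9 CPM against 1.07 and 0.353 CPM. PAX5 and BTK were the only 2 of the 38 at least 4-fold higher than in both lines, near the 6.35% of all genes compared. Of the 38, 18 had enough UMIs to be compared. The summed B cell level was 511 CPM (498 to 525), against 2273 CPM in Jurkat replicate 1 and 517 CPM in eHAP. The other members above 10 CPM, TCF3, FOXO1, ERG, EBF1 and BACH2, were not 4-fold above both lines. TCF3, at 128 CPM, was below both (168 and 155 CPM), and BACH2, at 21.4 CPM, was below Jurkat replicate 1 (484 CPM). The genes by which a B cell is recognised were at or near 0: CD79B, MS4A1, VPREB1, IGHM, IGHD, IGKC and IGLC1 to IGLC3 had 0 UMIs, and CD79A had 35, or 3.11 CPM. MHC class II genes, high in B cells and in most monocytes, were nearly absent, with 0 of 13 members at 10 CPM. HLA-DRA and CD74 had 2 UMIs each and HLA-DPA1 and HLA-DPB1 had 0.

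T and NK cell genes were also mostly low. Of 28 T cell genes 5 reached 10 CPM in the K562-labelled library and 22 in Jurkat, and the summed level was 137 CPM (131 to 144) against 6671 CPM in Jurkat and 165 CPM in eHAP. The 5 were SATB1 (32.3 CPM), TOX (24.8 CPM), TRAC (16.9 CPM), LAT (15.6 CPM) and CD247 (13.0 CPM). TRAC, the constant part of the T cell receptor alpha chain, was seen in 153 barcodes, while TRBC1, the beta chain, was at 2.31 CPM, TRBC2 at 0 and CD3D at 1.33 CPM. In Jurkat replicate 1 these 4 genes were at 468, 675, 78.8 and 243 CPM, so TRAC in the K562-labelled library was not accompanied by the other chains in the Jurkat proportions. NKG7, a granule membrane protein of cytotoxic lymphocytes, was the most abundant gene of the B, T and NK cell lists at 877 CPM (860 to 895), against 3.84 CPM in Jurkat and 0 UMIs in eHAP. It was the only one of 17 NK cell genes above 10 CPM. PRF1, GZMB, GZMH and EOMES were at 0 and GNLY at 2.85 CPM. Of 10 mast cell and basophil genes only TPSAB1, a tryptase with close copies, passed 10 CPM, at 13.7 CPM.

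General blood cell genes placed the cells among leukocytes. Of 23 genes common to leukocytes 22 reached 10 CPM, the exception being CD52 at 3.47 CPM. CORO1A stood at 718 CPM, ARHGDIB at 642 CPM, LCP1 at 616 CPM, LAPTM5 at 502 CPM and IKZF1 at 448 CPM. CD45 (PTPRC) stood at 100 CPM, below the 934 and 401 CPM of the Jurkat libraries and above 0.383 CPM in eHAP. Among 20 cytokine receptor genes 9 passed 10 CPM, led by IL2RG (255 CPM), IL6R (119 CPM) and TNFRSF1B (67.8 CPM), with CSF3R, the G-CSF receptor, at 47.6 CPM and CSF2RA, of the GM-CSF receptor, at 39.9 CPM. Receptors tied to red cells and stem cells were low, with EPOR at 1.78 CPM and KIT at 0.178 CPM. CD34 had 5 UMIs and GATA2 had 7, whereas MYB (220 CPM), RUNX1 (541 CPM) and the adhesion receptor CD44 (148 CPM) were well detected. Of the HOXA genes, HOXA10 (33.5 CPM), HOXA11 (15.9 CPM) and HOXA9 (11.6 CPM) passed 10 CPM, while HOXA7 had 2 UMIs, HOXB3 and HOXB4 1 each and HOXB2 and HOXB6 none.

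The 9p21 segment bore on the label from outside blood lineage, and MHC class I did so only as RNA, not as surface protein. HLA-B stood at 805 CPM (789 to 822), a ratio of 13.9 (13.2 to 14.6) to Jurkat replicate 1 and 8.55 (8.21 to 8.90) to NOTE-seq eHAP. B2M, the class I light chain, stood at 2368 CPM, 5.68-fold (5.57 to 5.79) and 7.08-fold (6.93 to 7.24) higher, and HLA-C at 384 CPM. HLA genes resemble each other closely, so the split of counts between them is uncertain. MTAP (chr9:21802636-21941115), of the methionine salvage pathway, stood at 193 CPM (185 to 201) and CDKN2A (chr9:21967752-21995324), a cell cycle inhibitor gene, at 110 CPM (104 to 116). In Jurkat replicate 1 MTAP was at 0.507 CPM and CDKN2A had 0 UMIs, and in eHAP they were at 90.3 and 171 CPM. At full depth 1033 of 1511 K562-labelled barcodes (68.4%) held an MTAP UMI, against 19 of 1842 in Jurkat. VIM stood at 68.8 CPM, 4.28-fold (3.98 to 4.61) lower than in Jurkat. Of 10 further genes held to be active in K562, 3 reached 10 CPM (UROD at 90.8 CPM, VIM, and TPM1 at 29.9 CPM), against 4 in Jurkat and 5 in eHAP. The list summed to 195 CPM, against 370 CPM in Jurkat and 1158 CPM in eHAP, and PRAME had 1 UMI, LIN28B 33, XAGE1B 21 and GAGE12J and MAGEA3 0.

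Over all genes, 16483 had at least 100 UMIs over the K562-labelled, Jurkat replicate 1 and NOTE-seq eHAP libraries. With counts of 0 set to 3 UMIs, 1046 of them (6.35%) were at least 4-fold higher in the K562-labelled library than in both lines and 969 (5.88%) at least 4-fold lower than in both. With libraries scaled by the median of gene ratios these counts were 765 and 1309, since that scaling moved the median log2 ratio of all genes from -0.06 to -0.55 over Jurkat and from 0.09 to -0.35 over eHAP. Against this background, 19 of 41 monocyte genes and 10 of 20 granulocyte genes were 4-fold higher. Those with enough UMIs to be counted numbered 23 and 11, and 0 were lower in either list. Genes that passed the minimum only through the K562-labelled library could not be called lower. LYZ, with 1501, 4 and 2 UMIs in the K562-labelled, Jurkat replicate 1 and NOTE-seq eHAP libraries, was such a gene. So were all genes called higher in these lists except CTSH, LST1 and SRGN. The counts of higher genes in both lists thus rest mostly on genes that could not have been called lower. Of the monocyte list 18 genes, of the granulocyte list 9 and of the erythroid list 13, fell short of 100 UMIs and could not be counted. The T cell list had 0 of 28 higher and 2 lower (the T cell factors TCF7 and GATA3), the erythroid list 3 of 25 higher (LMO2, NFE2 and SLC4A1) and TAL1 lower. The lists were written with the pattern of this library known, so these counts describe it and do not test it.

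Libraries of 1 line gave a measure of the spread that 1 library per line cannot show. Among genes at 50 CPM or more in either library, 999 of 6153 (16.2%) differed 4-fold in either direction between the K562-labelled library and Jurkat replicate 1, and 1286 of 6035 (21.3%) between it and NOTE-seq eHAP. The K562-labelled libraries with and without IAA differed 4-fold in 0 of 5152 genes (0%). The Jurkat libraries differed in 427 of 5955 (7.17%), the NOTE-seq and 10x eHAP libraries in 105 of 5084 (2.07%), and the NOTE-seq and methanol eHAP libraries in 1808 of 4733 (38.2%). The gap between the K562-labelled library and each line was thus wider than that between Jurkat libraries, but narrower than the one that came with methanol fixation of eHAP cells. The K562-labelled, Jurkat replicate 1 and NOTE-seq eHAP libraries share their protocol, while the 2 eHAP cross-check libraries do not.

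The 15 genes highest over both lines were led by CES1, a monocyte and liver carboxylesterase, at 384 CPM (372 to 395) with 1 UMI in Jurkat and 3 in eHAP. They included S100A6 (224 CPM), the chemokine CXCL8 (79.2 CPM), RNASE2, MNDA (191 CPM, a nuclear antigen of myeloid cells), NCF4, CLECL1 (128 CPM), LYZ and RNASE3. CD93, a surface glycoprotein of monocytes and early progenitors, was the most abundant at 418 CPM (406 to 430), with 11 UMIs in Jurkat and 0 in eHAP. The neuropeptide gene GAL stood at 79.6 CPM, the succinate receptor gene SUCNR1 at 53.7 CPM, the sphingosine phosphate receptor gene S1PR4 at 46.0 CPM, SIGLEC12 at 28.3 CPM and the endotoxin receptor gene TLR4 at 21.4 CPM. Each of the 15 had at most 11 UMIs in Jurkat and 3 in eHAP, where 1 to 3 UMIs do not fix a ratio. In the library without IAA they lay between 15.8 CPM (TLR4) and 497 CPM (CD93), and CXCL8 was 2.80-fold (2.25 to 3.45) higher there than with IAA.

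The 15 genes lowest against both lines had 0 to 20 UMIs in the K562-labelled library. ENO2, a glycolytic enzyme, had 1 UMI against 62.4 CPM in Jurkat and 88.2 CPM in eHAP, and the tetraspanin gene CD81 had 2 UMIs against 73.0 and 219 CPM. YBX3, an RNA-binding protein, was the most abundant at 1.78 CPM against 326 and 502 CPM, and the aldose reductase gene AKR1B1 had 5 UMIs against 157 and 196 CPM. CORO1B, a broadly expressed relative of the leukocyte gene CORO1A, had 0 UMIs, so it was at least 180-fold higher in Jurkat and at least 383-fold higher in eHAP, while CORO1A stood 5.98-fold (5.77 to 6.21) and 57.9-fold (52.5 to 64.0) above them. BEX3, TCEAL4, ARMCX3 and ARMCX6 were 4 of the 15, and these genes lie at chrX:103376323-103378164, chrX:103576231-103587729, chrX:101623151-101627843 and chrX:101615125-101618000. ITM2A (3 UMIs) and SLC38A5 (1 UMI) are also on the X chromosome. Others of the 15 were SIX5, NAXD and SPINT1, each with 1 UMI.

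The share of barcodes in which a lineage gene was found differed widely between genes. At 3000 UMIs per barcode a LYZ UMI was found in 441 of 1463 K562-labelled barcodes (30.1%, 27.8 to 32.6%), and in 0 of 1781 Jurkat and 0 of 3046 eHAP barcodes, where 3 counts of the total would be 0.168% and 0.0985% of barcodes with a UMI at this depth. At full depth the LYZ share was 52.2%, with 4 barcodes in Jurkat and 2 in eHAP. AIF1 was found in 52.8% of thinned K562-labelled barcodes, 30.3% of Jurkat and 0 of eHAP. Before thinning the AIF1 shares of the K562-labelled and Jurkat libraries, at 79.2% and 79.4%, were alike at median depths of 7126 and 17481 UMIs. EBF1 was found in 13.3% (11.6 to 15.2%) against 7.02% in Jurkat and 0.722% in eHAP, and PAX5 in 9.98% (8.49 to 11.6%) against 0.225% and 0.460%. NKG7 was found in 90.8%, SRGN in 78.6% and CD93 in 68.3% of thinned K562-labelled barcodes, and GATA1 was found in 1 of 1463 barcodes. These gaps are wider than the counting intervals. Free RNA in the K562-labelled library itself was not measured, and its part in these shares was not tested.

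**Figure D3:**
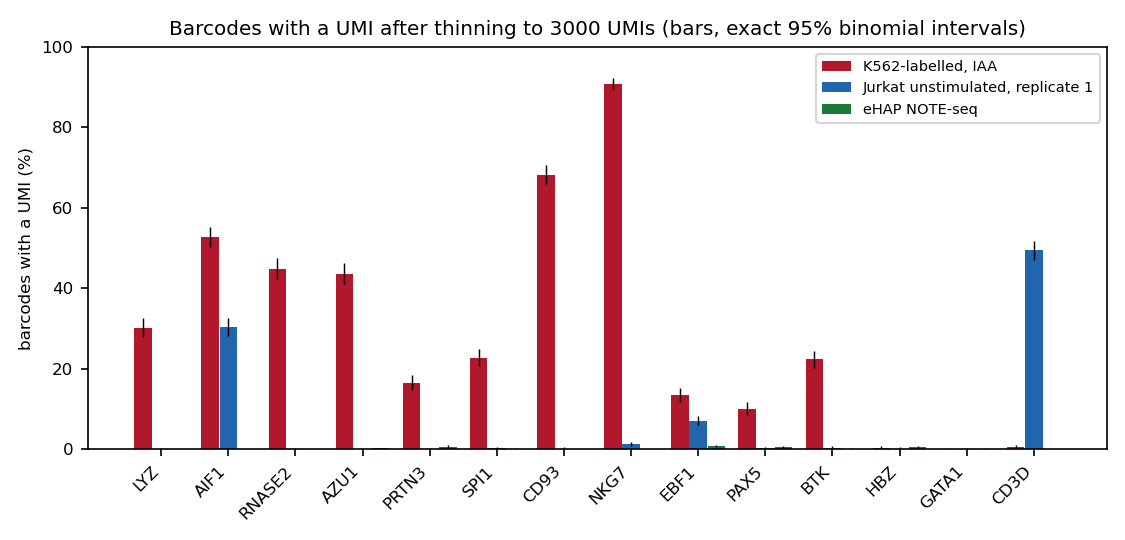
Share of barcodes with a UMI of 14 genes after thinning to 3000 UMIs, in percent, with bars for the K562-labelled (red), Jurkat replicate 1 (blue) and NOTE-seq eHAP (green) libraries and exact 95% binomial intervals. NKG7 reaches 90.8% in the K562-labelled library, LYZ 30.1%, and HBZ and GATA1 are near 0 in all 3.

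UMIs of monocyte, granule and B cell factor genes occurred in the same barcodes, with no test of how much came from free RNA. From the monocyte and granulocyte lists, 15 genes were at 10 CPM or more in the K562-labelled library and under 1 CPM in both lines, so their absence from those lines was fixed by the choice. In the K562-labelled library their summed UMIs ran from 0 to 85 per barcode, with a median of 7, and 1493 of 1511 barcodes held at least 1. At 3000 UMIs the median was 3 and 91 of 1463 barcodes held none. Barcodes with an EBF1 UMI held a LYZ UMI in 208 of 381 cases (54.6%), against 580 of 1130 (51.3%) of those without EBF1, at median depths of 7725 and 6973 UMIs. For PAX5 the LYZ shares were 53.4% and 51.8%. After thinning, LYZ was found in 33.3% of EBF1 barcodes and 29.7% of the others, and AIF1 in 48.2% and 53.5%, while LYZ was found in 27.4% of PAX5 barcodes and 30.4% of the others. UMIs of LYZ, AIF1 and EBF1 all occurred together in 166 barcodes at full depth. Of the 153 barcodes with TRAC 80 (52.3%) held LYZ against 52.1% of the rest, and after thinning 25 of 64 (39.1%) against 29.7%. Barcodes without a UMI of the 15 genes numbered 3 of 381 with EBF1, 1 of 294 with PAX5 and 1 of 153 with TRAC.

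**Figure D4:**
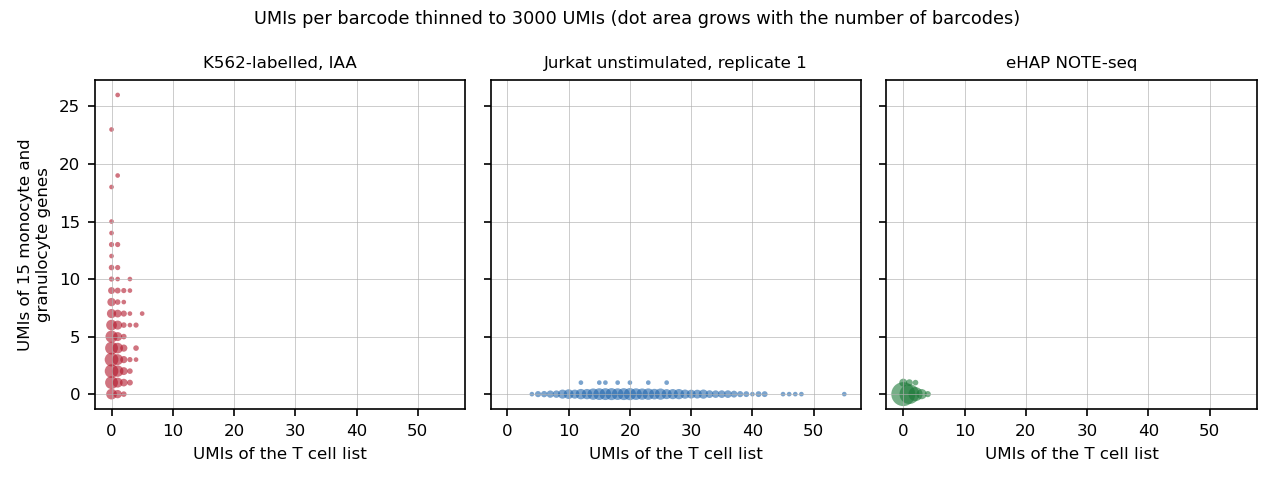
UMIs of 15 monocyte and granulocyte genes (y axis) against UMIs of the T cell list (x axis) in barcodes thinned to 3000 UMIs, with dot area growing with the number of barcodes. K562-labelled barcodes reach 26 UMIs on the y axis and at most 5 on the x axis, and all Jurkat barcodes hold between 4 and 55 T cell UMIs.

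Each barcode was also placed by its whole profile. Thinned barcodes were correlated by rank with the summed profiles of 3 libraries that hold none of these barcodes' counts (K562-labelled without IAA, unnumbered Jurkat and 10x eHAP) over 12279 genes at 10 CPM or more in any of them. All 1463 K562-labelled barcodes were closest to the K562-labelled profile, with a median Spearman correlation of 0.415 (0.361 to 0.446), against 0.306 for the Jurkat and 0.271 for the eHAP profile. Of the Jurkat barcodes 1780 of 1781 were closest to the Jurkat profile and 1 to the K562-labelled one, and all 3046 eHAP barcodes were closest to eHAP. These correlations run across genes within a barcode, which are not independent, and the profile without IAA rests on 49 barcodes and 442297 UMIs. None of these 1463 barcodes was thus nearer to a comparison line than to the second library of its own label. Because a library of the same label was among the profiles, this outcome was close to fixed. It does not show which line or lineage the cells are.

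Within the library, barcodes differed by cell cycle genes and by other genes too. Grouping them by their variable genes gave 4 clusters of 633, 487, 245 and 146 barcodes, which are numbered by size and left unnamed because the genes that lead them are not lineage markers. Cluster 1 was led by the S phase genes CCNE2, UNG and DTL, and cluster 3 by PIF1, ASPM, CENPE and PLK1 of mitosis. Cluster 2 was led by histone genes such as HIST1H4C, together with genes outside the cell cycle lists such as MIR3681HG, MAML2 and PSD3. Cluster 4 was led by a transcript without a gene name and CDC20, with the lowest median of 5297 UMIs. The summed G2/M genes ran from 1119 CPM in cluster 1 to 3977 CPM in cluster 3, and the G1/S genes from 2284 CPM in cluster 3 to 3524 CPM in cluster 1. The summed monocyte genes ran from 1848 to 2014 CPM over the 4 clusters and the granulocyte genes from 1261 to 1404 CPM. LYZ ran from 113 to 141 CPM, RNASE2 from 184 to 219 CPM and EBF1 from 33.5 to 52.9 CPM. Other genes varied more: MNDA ran from 167 to 314 CPM, CD93 from 364 to 604 CPM, NCF1 from 34.1 to 71.7 CPM and CXCL8 from 36.7 to 118 CPM. PAX5 ran from 15.9 CPM (12.2 to 20.4) in cluster 2 to 46.7 CPM (40.4 to 53.6) in cluster 1. These ranges depend on how finely barcodes are grouped. With 8 clusters, at a resolution of 1.0, the summed monocyte genes ran from 1632 to 2743 CPM. These values come from the genes that made the clusters and are a description. No doublet caller was run, and 4 barcodes had more than 3 times the median UMI count.

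**Figure D5:**
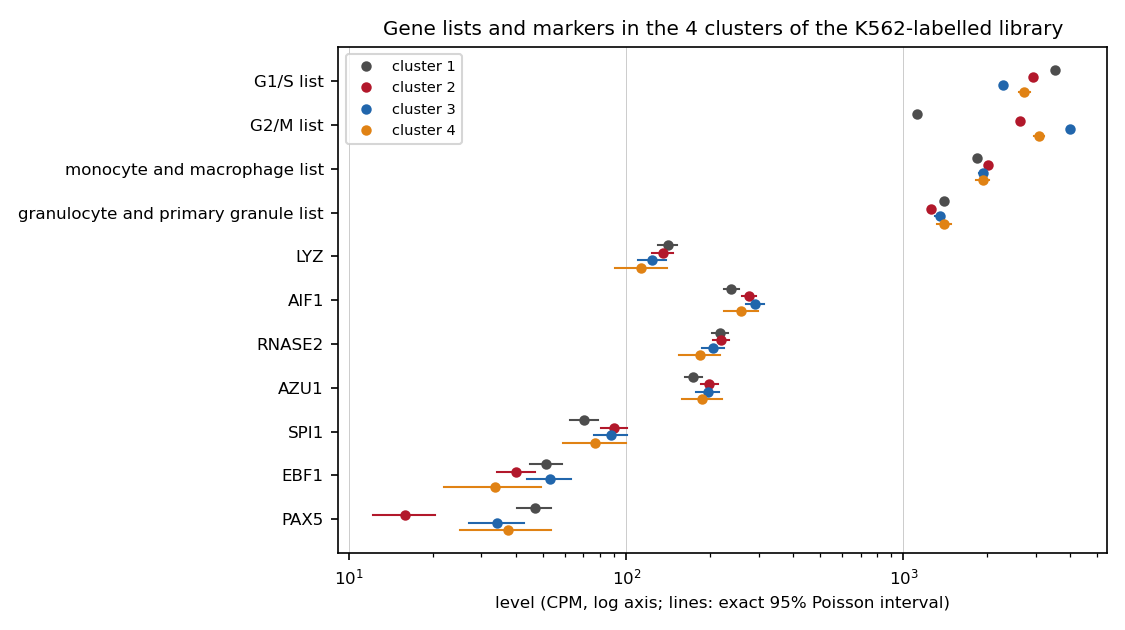
Level of 4 gene lists and 7 genes in the 4 clusters of the K562-labelled library, in CPM on a log axis, with exact 95% Poisson intervals as lines. The G2/M list spans 1119 to 3977 CPM across these clusters, while the monocyte list spans 1848 to 2014 CPM at this resolution of 0.5.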

How the data were processed

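Gene expression was measured by droplet single-cell sequencing. The deposited matrices hold counts of UMIs per gene and barcode, made with cellranger 7.1.0 per the file headers, on GRCh38 per the submitters' processing notes. Old and new RNA are counted alike. Every barcode in the matrices was kept, no doublets were removed, and groups came from the labels. Whether intronic reads were counted is not given in the sources used here.

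UMIs were summed per library and divided by the library total and scaled to 1000000 (CPM). No test between libraries was run, as each line had 1 main library. Intervals are exact 95% Poisson intervals for levels, exact conditional intervals for ratios and Clopper-Pearson intervals for shares. A count of 0 was set to 3 UMIs for ratios. Genes needed at least 100 UMIs over the 3 main libraries to be called 4-fold apart, a step that was tested on simulated counts with known changes. Thinning drew 3000 UMIs per barcode without replacement from a fixed seed. Clusters came from scanpy 1.11.5 (log counts per 10000, 2000 variable genes, 30 principal components, Leiden at resolution 0.5). For clusters, leading genes were ranked after 5 CPM was added to each level.

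Named genes are LYZ, AIF1, EBF1 and the globins, the 15 genes furthest above and the 15 furthest below both lines (at least 10 CPM where high), and per list up to 6 members highest in the K562-labelled library and defining members at 0. Some further list members were named after their values were seen. The cells, the 29 lists and the tests were chosen with earlier results of these data known. Coordinates come from RefSeq GRCh38.p14 by symbol (44 of 44 genes matched). Alternatives changed the scaling, the libraries, the barcode and UMI minimums, the fold and level thresholds, the thinning depth, the clustering and the correlation. Results for some genes are not reported here.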

Additional observations from a re-analysis of the deposited data

How the results depend on the processing

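Over the other scalings, libraries and barcode filters, 512 ratios of the 30 most distant genes and of LYZ, AIF1 and EBF1 were recomputed: 0 reversed, 67 moved beyond their counting interval and 445 did not. The 30 genes had been picked for the widest gaps, so for them the 0 was close to fixed in advance. The 1046 higher and 969 lower genes became 639 and 459 with the 49-barcode library in place of the one with IAA, where 3 UMIs come to 6.78 CPM. The lower genes became 567 with methanol eHAP, and the cause was not tested. At 2-fold there were 2216 and 2018, at 8-fold 514 and 537. With at least 10 UMIs over the 3 libraries there were 2797 higher genes, and with at least 1 there were 3756. That last count includes genes with 0 UMIs in the K562-labelled library, since 0 was set to 3 UMIs. FCGR3A, with 0 UMIs there and 1 each in Jurkat replicate 1 and NOTE-seq eHAP, had log2 ratios of 3.32 and 3.18. At 1 CPM in place of 10 CPM the list members counted were 34 monocyte, 14 granulocyte, 13 erythroid, 18 B cell and 17 T cell genes. At 50 CPM there were 9 monocyte, 4 B cell and 0 T cell genes. Shares moved with depth: LYZ was found in 52.2% of barcodes at full depth and 17.5% at 1500 UMIs, AIF1 in 79.2% and 32.8%, and EBF1 in 25.2% and 6.19%. A resolution of 1.0 gave 8 clusters. Leaving cell cycle list genes out of the variable genes gave 4, and the nearest profile of all 1463 barcodes stayed the same under both alternatives. No paired analysis was possible because 1 library per line was compared and no test was run. Depth limits low genes most: a count of 0 in the K562-labelled library allows a level of up to 0.267 CPM (3 UMIs).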

Other observations

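At the finer resolution of 1.0, the smallest of 8 clusters, with 61 barcodes (4.04%) and a median of 6511 UMIs, was led by NCF1, PSD3, EMP1, ITGAX, MMP8, MAML2 and CD86. ITGAX (CD11c), MMP8 (a neutrophil collagenase) and CD86 (a costimulatory ligand of antigen-presenting cells) are genes of more mature myeloid cells. NCF1 stood at 356 CPM there (302 to 416) and between 20.1 and 74.3 CPM in the other 7 clusters. ITGAX stood at 47.9 CPM (29.7 to 73.2) on 21 UMIs, CD86 at 34.2 CPM on 15 UMIs and IL1B, an inflammatory cytokine, at 41.1 CPM on 18 UMIs. S100A9 and CXCL8 were also highest there, at 251 and 265 CPM. The summed monocyte genes stood at 2743 CPM there (2590 to 2902), against 1632 to 2212 CPM in the other 7 clusters. MS4A3, a gene of granulocyte and monocyte precursors, was at 6.85 CPM (1.41 to 20.0) on 3 UMIs, against 36.0 to 71.0 CPM elsewhere, and PRTN3 at 27.4 CPM against 47.3 to 88.9 CPM. LYZ at 144 CPM and AIF1 at 203 CPM were within the range of the other clusters, and EBF1 at 86.7 CPM (61.4 to 119) was above it. These genes shaped the clusters, so the values describe them.

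Among lists outside the blood lineages, fibroblast genes summed to 10.1 CPM against 55.1 CPM in Jurkat and 283 CPM in eHAP, and epithelial genes to 31.0 CPM against 53.1 and 195 CPM. Interferon response genes summed to 365 CPM (354 to 376) against 165 and 174 CPM.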
